A study of Mus musculus with 13 samples.

Results

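The baseline transcriptome of the wild-type adult mouse heart was described from 3 hearts of 13 libraries in all. They are the hearts of genotype WT/WT that carry no potential outlier note in the labels, WT/WT replicates 2, 3 and 4. Each was the heart of a male C57BL/6N mouse, 13 weeks old and fed chow, with 2 unmodified Cpt1b alleles; the other genotypes of the series carry the E3A knock-in allele of this gene and are not compared here. The label gives the tissue as heart, without naming chambers. RNA was captured by its poly(A) tail, and 1 single-end library was read from each heart. The remaining WT/WT library, replicate 1, carries the potential outlier note and is set beside the 3 hearts as values only. Levels are CPM, the reads of a gene per 1000000 reads counted in genes. Because a longer transcript yields more reads, levels of different genes were compared as CPM per kilobase of transcript. The 3 hearts held 40175532, 23913192 and 41478171 counted reads, and replicate 1 held 52602883. The values below are descriptive, with no test, and every ± is the SD over the 3 hearts.

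The heart beats without rest and draws most of its ATP from mitochondrial oxidation of fatty acids, with glucose, lactate and ketone bodies as further fuels. Its contractile unit, the sarcomere, slides myosin along actin filaments, gated by calcium through troponin and tropomyosin, and calcium is released by the ryanodine receptor and pumped back by SERCA2. Many of these proteins belong to families whose members are divided among heart, skeletal muscle, liver and other tissues, so the member that dominates a family is part of what makes heart muscle distinct.

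A pair of actins and a pair of myosin light chains carry a CArG box, the binding motif of serum response factor, in the bases before a start listed by RefSeq, and their levels differ widely. The sequences are shown because sarcomere genes of the highest levels and of lower levels both carry the box. Cardiac actin (Actc1) stands beside its family member skeletal actin (Acta1). Myl3, the ventricular essential light chain, stands beside Myl7, the atrial regulatory light chain, which belongs to another light chain family. Each is 100 bases of GRCm38.p6 written 5′ to 3′ along the gene's own strand, with the box in capitals.
Actc1, chr2:114052876-114052975, minus strand: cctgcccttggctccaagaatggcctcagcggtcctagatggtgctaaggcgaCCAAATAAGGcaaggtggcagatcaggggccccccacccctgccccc
Acta1, chr8:123894794-123894893, minus strand: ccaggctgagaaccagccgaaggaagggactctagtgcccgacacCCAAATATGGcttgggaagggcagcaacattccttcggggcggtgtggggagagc
Myl3, chr9:110763548-110763647, plus strand: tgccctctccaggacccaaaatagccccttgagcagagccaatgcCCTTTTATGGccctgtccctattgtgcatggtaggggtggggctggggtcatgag
Myl7, chr11:5898789-5898888, minus strand: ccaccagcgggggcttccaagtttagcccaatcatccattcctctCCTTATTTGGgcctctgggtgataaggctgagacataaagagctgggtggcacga
Searched on both strands over the 250 bases before each listed start, the CArG box was found in 10 of the 65 sarcomere genes that had a promoter window (15.4%) and in 439 of 27025 genes with a window in all (1.62%). The plain TATA motif TATAAA was found in 16 of the same 65 genes (24.6%) and in 3872 of all genes (14.3%). The motifs were counted separately, and a gene may hold both. Both members of the actin pair held the box although Actc1 stood at 6787 ± 156 CPM per kilobase and Acta1 at 103.3 ± 36.0 (n = 3). A match is a string of letters and not a measured binding site.

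Read counts were concentrated in genes of contraction, calcium cycling and oxygen use. Myh6, the alpha myosin heavy chain that drives contraction in the adult mouse heart (chromosome 14, 54941921 to 54966927, GRCm38), held 38999, 42627 and 41908 CPM in replicates 2, 3 and 4, or 4.12% ± 0.192 of all counted reads (n = 3). Second by reads was Rn45s, the 45S precursor of ribosomal RNA, at 29616, 32117 and 33975 CPM. It is not a messenger RNA and was counted in libraries made from poly(A) RNA. Atp2a2, which encodes the calcium pump SERCA2 (chromosome 5, 122453513 to 122502225), held 22207, 24048 and 25057 CPM. For all of these genes replicate 2 was the lowest heart.

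Mb, encoding the oxygen store myoglobin (chromosome 15, 77015487 to 77050670), was next, at 12412, 11670 and 11477 CPM. Replicate 2 was the highest heart for this gene. The next genes were Actc1 (9997 ± 230 CPM), Tpm1 (tropomyosin, 9381 ± 251), Tnnt2 (troponin T, 7975 ± 179) and Ttn (titin, the molecular spring of the sarcomere, 7439 ± 150). Mitochondrial and lipid genes followed. They included Atp5b and Atp5a1, the beta and alpha subunits of ATP synthase, at 6889 ± 48.0 and 5825 ± 100.3 CPM. Lpl, the lipoprotein lipase that frees fatty acids from circulating triglyceride, stood at 6515 ± 324 CPM. Slc25a4, which exchanges ADP for ATP across the inner mitochondrial membrane, stood at 4941 ± 24.2 CPM. Pln, the inhibitor of SERCA2, held 6562 ± 285 CPM. Of its windows of 100 bases, 49.6% were shared with other annotated transcripts, most with those of Gm47644, but its exons overlapped no other listed gene. The remaining members of the first 20 were Mybpc3, Myl2, Myl3 and Tnni3 of the sarcomere, the ryanodine receptor Ryr2, the nuclear RNA Malat1, and Ogdh of the tricarboxylic acid cycle.

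**Figure D1:**
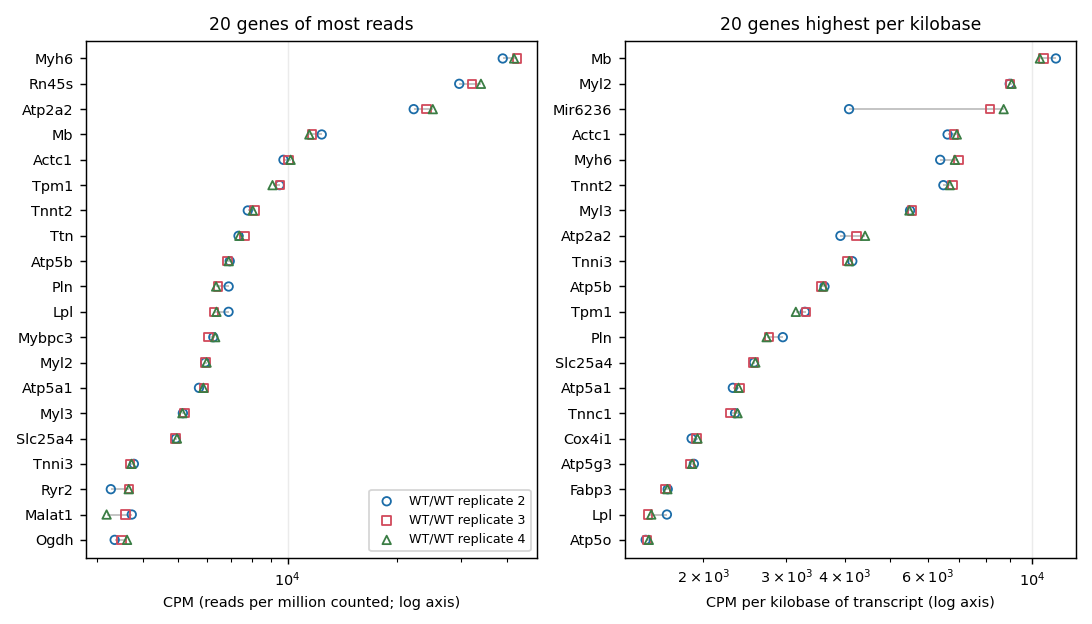
The 20 genes of most reads (left, CPM, log axis) and the 20 highest per kilobase of transcript (right, log axis) in WT/WT replicates 2, 3 and 4, 1 symbol per heart, with a grey line from the lowest to the highest heart. Myh6 leads by reads and Mb per kilobase, and Mir6236 is the gene of the right panel whose hearts lie far apart, from 4082 to 8705.

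Division by length changed the order. Mb was first per kilobase, at 11243, 10570 and 10396 CPM per kilobase, and Myl2, the ventricular regulatory light chain, was second at 8968, 8988 and 9050. The hearts lay close together for Myl2. Myh6 moved from place 1 to place 5, at 6736 ± 314 CPM per kilobase, and Ttn, whose transcript is 100.4 kb long, moved from place 8 to place 724, at 73.0, 75.8 and 73.4 CPM per kilobase. Of the first 100 genes by reads, 66 were also among the first 100 per kilobase. Their median transcript length was 2.66 kb by reads and 1.51 kb per kilobase, beside 3.14 kb for the 12419 genes of known length with at least 1 CPM in every heart. Mir6236, a microRNA gene of 0.123 kb, was in place 3 per kilobase but in place 125 by reads, at 858 ± 310 CPM. Division by so short a length set the higher place, which is not a measure of microRNA level in poly(A) libraries. What the reads under this symbol came from was not tested. The hearts lay apart for Mir6236, at 502.1, 1002 and 1071 CPM, with replicate 2 the low one, and replicate 1 stood at 3316 CPM. Rn45s had no length and has no value per kilobase.

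The order was stable across the 3 hearts. Of the first 100 genes by reads, 96 were shared by all hearts, as were 19 of the first 20, and 9 of the first 10 places were held by the same gene in every heart. The first 10 genes took 15.1%, 15.9% and 16.0% of reads in replicates 2, 3 and 4, the first 100 took 33.4% ± 0.587 and the first 1000 took 62.6% ± 0.508 (n = 3). The 50% mark was reached with 434, 406 and 399 genes. At the other end, 12479 genes reached 1 CPM in every heart, 8719 reached 10, 1649 reached 100, and 100 reached 1000. Only Myh6, Rn45s, Atp2a2 and Mb held 10000 CPM or more in every heart. Between 16875 and 17565 genes had a read in a heart, with the lowest number in the library of least depth, and 5588 of the 24061 listed symbols had none in any. Protein-coding genes took 95.8% ± 0.220 of reads.

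The tissue label was checked against marker genes. The 10 cardiomyocyte markers summed to 84510, 88366 and 88046 CPM and the 4 ventricular markers to 11145, 11219 and 11185. Markers of other cells were present at lower sums: 1457 ± 44.6 CPM for 8 endothelial genes, 1306 ± 31.7 for 8 fibroblast genes, 637 ± 13.1 for 7 genes of smooth muscle and pericytes and 223 ± 28.8 for 8 macrophage genes (n = 3). In an organ sample, fewer cells of a type and less RNA per cell cannot be told apart. The 8 skeletal muscle markers summed to 2.74 ± 0.140 CPM, the 5 lung markers to 0.432 ± 0.0918, and 7 lymphocyte markers to 4.08 ± 0.578. Other lists stood higher, and in some 1 gene held most of the sum. The 7 conduction system markers summed to 105 ± 2.67 CPM. White adipocyte markers summed to 42.5 ± 3.27 (Lipe 38.6), brown adipocyte markers to 23.3 ± 1.98 (Cidea 21.1) and brain markers to 14.5 ± 0.670 (Slc17a7 14.4). Nerve markers summed to 16.7 ± 2.17 and epicardial markers to 7.28 ± 1.04. The 4 Y-linked genes, in animals labelled male, summed to 260.2, 232 and 222 CPM, and to 52.9 in replicate 1. Liver and atrial markers differed between hearts and are described with the spread.

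By function, the sarcomere took the most reads of the 23 gene classes, with 81 genes in the files of which 63 averaged at least 10 CPM. It took 13.0%, 13.3% and 13.3% of counted reads in replicates 2, 3 and 4, and Myh6 alone made up 31.2% of the class. Calcium handling and membrane excitability (65 genes) took 4.96%, 5.16% and 5.26%, with Atp2a2 at 46.4% of the class. In this class Casq2, the calcium store of the sarcoplasmic reticulum, held 1207, 1204 and 1208 CPM, and Srl and Hrc, which sit in the same membrane system, held 1462 ± 5.53 and 1371 ± 22.6. Together the contractile and excitation classes took 18.3% ± 0.337 of reads (n = 3). In replicate 1 they took 25.9%, with Myh6 at 92626 CPM and Tnnt2 at 17399 CPM, more than the highest of the 3 hearts, but Pln at 758 CPM and Ttn at 30.9 CPM per kilobase, less than the lowest.

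Genes of energy metabolism took nearly as many reads. The 8 metabolic classes summed to 16.5%, 16.4% and 16.5% of reads, a mean of 16.5% ± 0.0352 (n = 3). Oxidative phosphorylation, 95 nuclear genes of the respiratory chain and ATP synthase, took 4.95% ± 0.0381, spread over many genes. Atp5b was 13.9% of the class, followed by Atp5a1, Sdha (2306 ± 55.0 CPM, the flavoprotein of complex II) and Cyc1 (cytochrome c1). Cyc1 held 2097, 1671 and 2054 CPM, with replicate 3 below the other hearts. Mitochondrially encoded transcripts were not analysed here, since no listed symbol begins with mt-. Per kilobase, the order of the large groups turned: the metabolic classes took 25.9% of the summed CPM per kilobase and the contractile and excitation classes 17.8%. Oxidative phosphorylation stood at 4.95% of reads and at 11.4% on that scale.

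**Figure D2:**
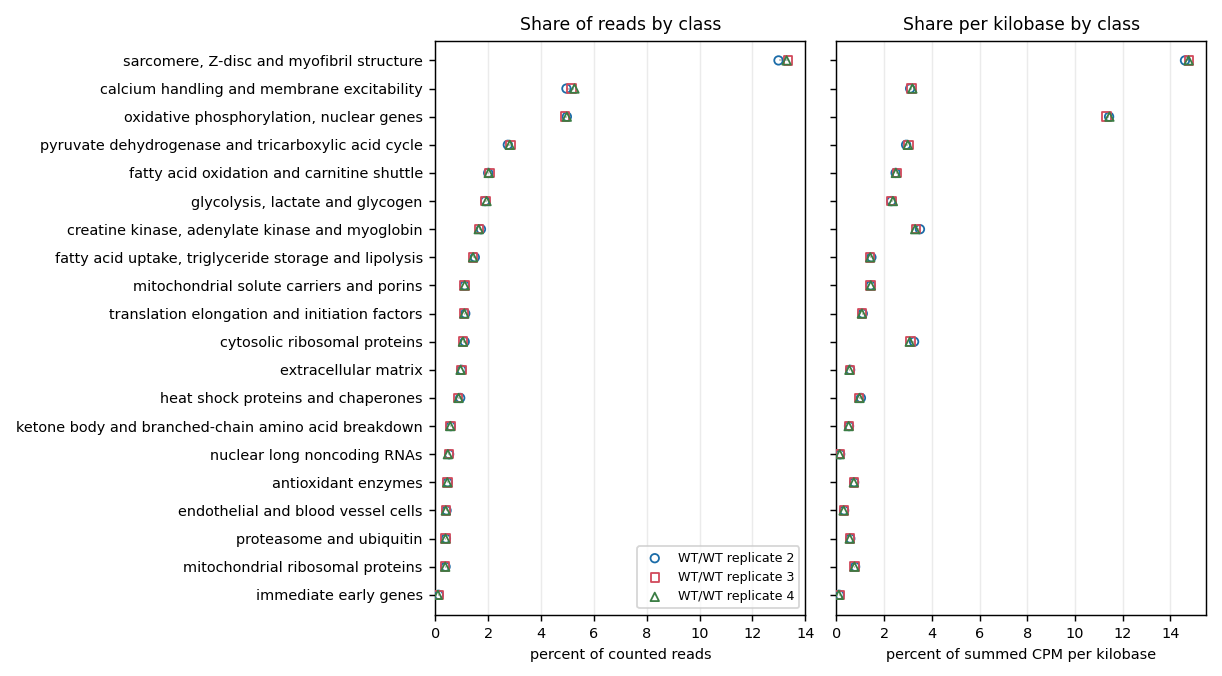
Share of each functional class in percent of counted reads (left) and in percent of the summed CPM per kilobase of transcript (right), for classes of at least 0.1% of reads, 1 symbol per heart (WT/WT replicates 2, 3 and 4). The symbols of a class nearly coincide, and oxidative phosphorylation moves from about the level of calcium handling on the left to 11.4% on the right.

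Fuel use was spread over several classes. Pyruvate dehydrogenase and the tricarboxylic acid cycle took 2.74%, 2.85% and 2.81% of reads, with Ogdh (3492 ± 137 CPM), Idh2 (isocitrate dehydrogenase, 2429.7 ± 67.4) and Mdh1 (malate dehydrogenase, 2089 ± 33.2) among its leading genes. Fatty acid oxidation with the carnitine shuttle took 1.996%, 2.04% and 2.01%, led by Hadha and Ech1 (2183 ± 48.8 and 1525 ± 26.6 CPM), enzymes of beta-oxidation. Glycolysis, lactate and glycogen took 1.90% ± 0.0261, led by Aldoa (aldolase, 2207 ± 61.1), Pygm (glycogen phosphorylase, 1571 ± 36.5), Pkm (pyruvate kinase, 1545 ± 29.95) and Pfkm (phosphofructokinase, 1537 ± 10.7). Uptake and storage of fatty acids took 1.44% ± 0.0425, with Lpl at 45.2% of the class, followed by the fatty acid translocase Cd36 (2194 ± 90.4 CPM) and the binding protein Fabp3 (1377 ± 7.49).

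The high-energy phosphate class with myoglobin took 1.67% ± 0.0461 of reads, 71.0% of it Mb, ahead of the creatine kinases Ckmt2 and Ckm. Mitochondrial carriers and porins took 1.10% ± 0.00398, led by Slc25a4, the phosphate carrier Slc25a3 (1557 ± 13.0 CPM) and the porin Vdac1 (1183 ± 19.8). Ketone and branched-chain amino acid breakdown took 0.566% ± 0.00924, led by Oxct1, which activates ketone bodies for oxidation (1567 ± 85.5 CPM). The 85 cytosolic ribosomal protein genes took 1.06% ± 0.0381 of reads as listed, less than the sarcomere, and 3.14% of the summed CPM per kilobase. The 77 mitochondrial ribosomal protein genes took 0.373% ± 0.00908 of reads. Rpl3l, a striated muscle relative of Rpl3, was among the first ribosomal genes at 271 ± 2.31 CPM. Of its windows, 0% were shared with other genes. Other leading cytosolic ribosomal genes ranged from 0.936% shared (Rps3) to 30.2% (Rps2). How reads matching several genes were counted is not stated. The part of such reads in the class share and in the place of Rpl3l was not tested. Extracellular matrix genes took 0.970% ± 0.0172, led by the basement membrane genes Hspg2 (perlecan, 1305 ± 53.7 CPM) and Col4a1 (837 ± 68.2). The natriuretic peptides Nppa and Nppb, hormones that the strained heart releases, held 142 ± 34.5 and 99.0 ± 22.1 CPM. In total the 23 classes covered 41.1% ± 0.132 of reads and the other genes 58.9%.

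Next, each family of related genes was ranked by CPM per kilobase to see which member the heart used. In 72 of 72 families, 61 metabolic and 11 contractile, the same gene was first in all 3 hearts. The ranking itself fixes which gene is first, so this agreement describes stability between hearts and was not tested. The first member held at least 90% of its family in every heart in 11 of 11 contractile and 23 of 61 metabolic families. Shares rest on reads as listed, so those of enolases and phosphoglycerate mutases, whose other members share sequence with further genes, are uncertain. Sharing was not limited to these families: 23.7% of the windows of 100 bases of Acaca, 21.7% of Fabp3 and 14.8% of Hadhb were shared. The median first share was 99.6% in contractile and 83.7% in metabolic families.

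Contractile families were close to exclusive. Among sarcomeric myosin heavy chains, Myh6 held 97.5%, 98.0% and 97.9%, and the beta heavy chain Myh7, the slower myosin of fetal and stressed mouse ventricle, stood at 109 ± 8.25 CPM per kilobase beside 6736 for Myh6. Windows of 100 bases shared with other genes made up 10% of Myh6, with Myh7 the largest partner. A part of such reads cannot be placed in 1 gene by sequence alone. Tnni3 held 99.96% ± 0.00272 of troponin I, Tnnt2 99.8% ± 0.0116 of troponin T, Atp2a2 99.9% ± 0.00874 of the SERCA pumps and Ryr2 99.9% ± 0.0179 of the ryanodine receptors. Of the ventricular light chains, Myl2 held 99.6% ± 0.248 over the atrial Myl7, and Myl3 99.1% ± 0.270 over the atrial Myl4. In the actin pair whose promoters are printed above, Actc1 held 97.9%, 99.0% and 98.6%, with Acta1 at 204.7, 101.3 and 142.3 CPM, highest in replicate 2 and lowest in replicate 3.

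**Figure D3:**
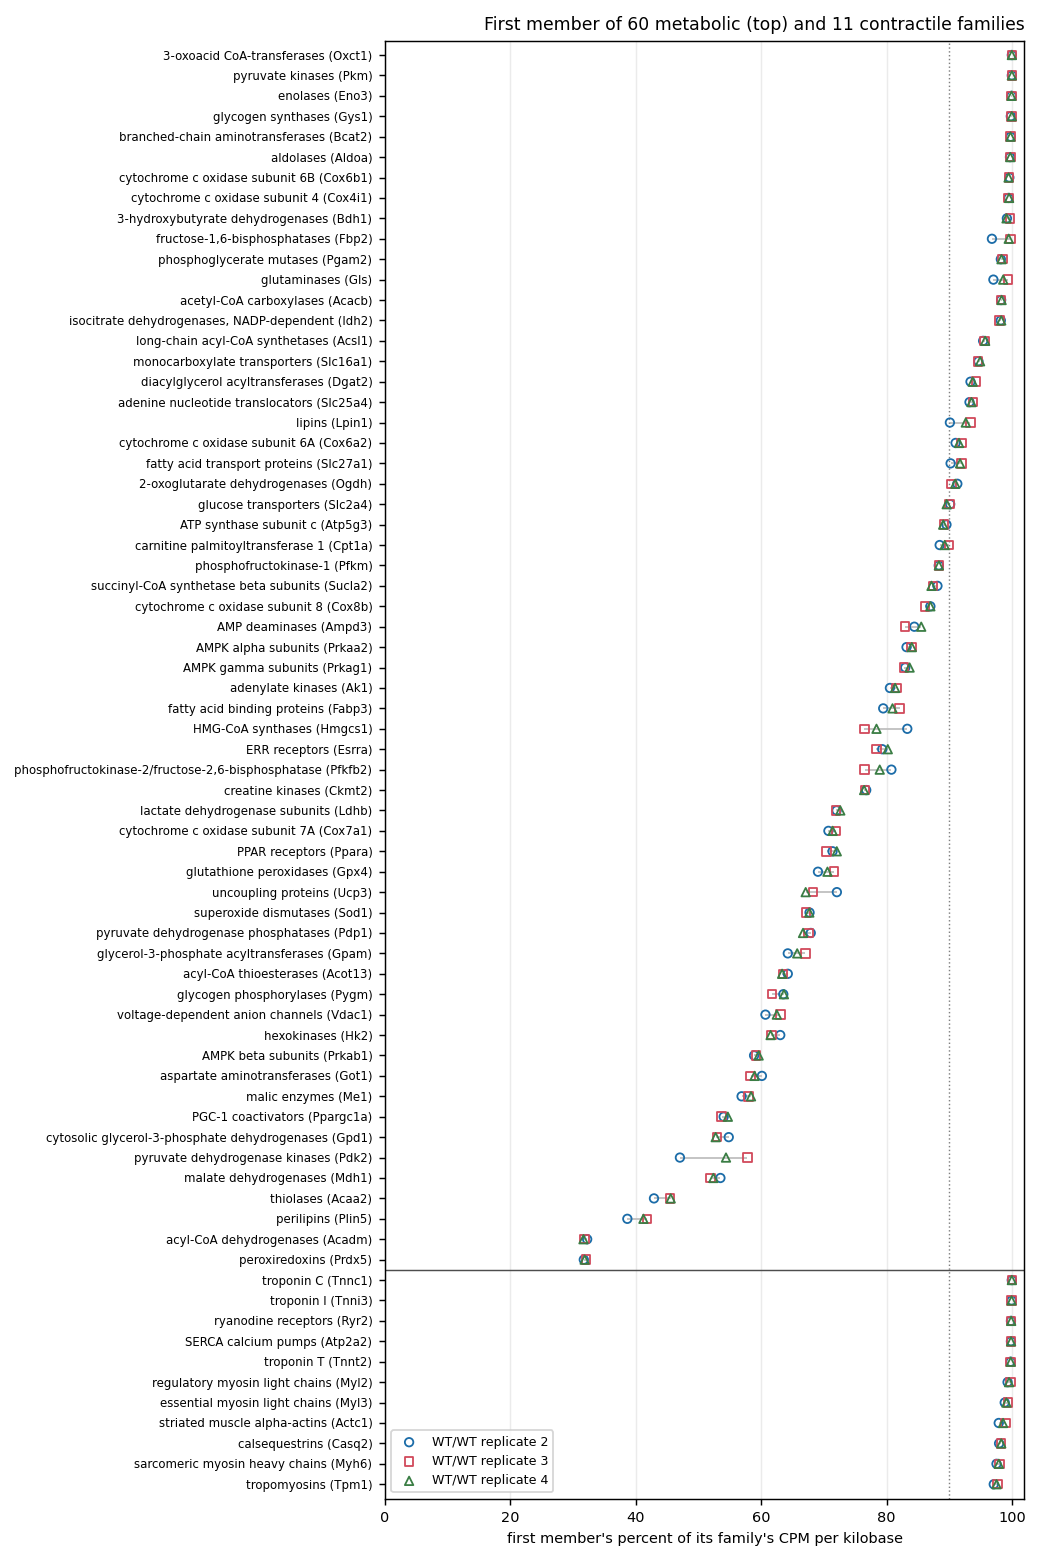
Percent of a family's summed CPM per kilobase held by its first member (named in brackets) in 60 of the metabolic families (above the line) and 11 contractile families (below it), 1 symbol per heart, WT/WT replicates 2, 3 and 4; the dotted line marks 90%. All contractile families lie to the right of the dotted line, and pyruvate dehydrogenase kinases (Pdk2) have the widest gap between hearts.

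In glucose use, the muscle members led. Slc2a4, the insulin-responsive glucose transporter GLUT4, held 89.9% ± 0.288 of the glucose transporters (507.3 ± 16.3 CPM), with Slc2a8 next and the ubiquitous Slc2a1 at 25.1 ± 1.48 CPM. Hk2, the insulin-regulated hexokinase, held 62.1% ± 0.851 and Hk1 35.2%. Pfkm held 88.4% ± 0.0108 of phosphofructokinase-1, Pgam2 98.4% ± 0.145 of phosphoglycerate mutase and Aldoa 99.7% ± 0.0262 of aldolases. The other mutase, Pgam1, had 33.9% of its windows of 100 bases shared with other genes, so the Pgam2 share is uncertain. Ldhb, the subunit that favours lactate use, held 72.04%, 71.9% and 72.6% of the lactate dehydrogenase subunits over Ldha. Pygm held only 62.97% ± 1.07 of glycogen phosphorylase, with the brain form Pygb, at 1249 ± 51.5 CPM, holding most of the rest. Eno3, the muscle enolase, was at 1363 ± 24.7 CPM. The ubiquitous Eno1 was listed at 0 reads in every heart. Of its windows, 20.4% are shared with other genes, with the listed gene Eno1b the largest partner. The sources used here do not say how reads matching several genes were counted, and the level of Eno1 is uncertain.

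Pyruvate dehydrogenase kinases, which switch off glucose oxidation, had the largest SD of the first member's share, 5.50 percentage points. By the log2 ratio of first to second member other families had larger SDs, such as glutaminases, at 1.19, beside 0.41 for the kinases. Pdk2 held 47.0%, 57.8% and 54.4% in replicates 2, 3 and 4, and Pdk4, the form induced by fasting and fatty acids, held 41.6%, 29.0% and 33.5%. By reads, Pdk4 stood at 664, 409 and 503 CPM, Pdk2 at 484, 526 and 527 CPM and Pdk1 at 267 ± 3.79. Replicate 2 was highest for Pdk4 and lowest for Pdk2. By reads without division by length, Pdk4 led Pdk2 on the mean of the hearts. Pdp1 held 67.4% ± 0.636 of the opposing phosphatases over Pdp2.

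In the cycle and the respiratory chain, the mitochondrial Idh2 held 98.2% ± 0.154 of NADP-dependent isocitrate dehydrogenases and Ogdh 90.9% ± 0.466 over Ogdhl. Sucla2, the ADP-forming subunit of succinyl-CoA synthetase, held 87.6% ± 0.491 over the GDP-forming Suclg2. The malate dehydrogenases were near balance, with the cytosolic Mdh1 at 52.6% ± 0.802 and the mitochondrial Mdh2 at 47.4%. The striated muscle forms of cytochrome c oxidase led their families: Cox6a2 held 91.5% ± 0.468, Cox8b 86.7% ± 0.491 and Cox7a1 71.4% ± 0.597. Cox4i1 held 99.5% ± 0.0477 over the oxygen-regulated Cox4i2. Slc25a4 held 93.5% ± 0.261 of the adenine nucleotide translocators over Slc25a5.

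In fatty acid families, Acsl1 held 95.6% ± 0.161 of long-chain acyl-CoA synthetases and Fabp3 80.8% ± 1.31 of fatty acid binding proteins, ahead of Fabp4, which is known from fat and capillary endothelium. Acyl-CoA dehydrogenases had the lowest first share but one: Acadm, for medium chains, held 31.9% ± 0.298, Acadl, for long chains, 29.3%, and Acadvl, for very long chains, 28.3%. Their levels were 730.4 ± 11.97 CPM per kilobase for Acadm, 670.1 ± 8.59 for Acadl and 648 ± 9.37 for Acadvl. Of the exon bases of Acadvl, 45% overlap other listed genes, with Dvl2 the largest partner, and 14.9% of its windows are shared. How reads in such overlaps were counted is not stated, so the place of Acadvl among the 3 is uncertain. In replicate 1 Acadvl was first. Acaa2 held 44.6% ± 1.51 of thiolases over Hadhb, which led it by reads without length. Of the windows of Hadhb, 14.8% are shared with other genes, so the order of these 2 is uncertain. Among perilipins, coats of the lipid droplet, Plin5 held 40.5% ± 1.66, and Plin4 had more reads but 23.5% per kilobase. Acacb, the acetyl-CoA carboxylase that makes malonyl-CoA at the mitochondrion, held 98.3% ± 0.0664 over Acaca, the form of fatty acid synthesis.

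Carnitine palmitoyltransferase 1, which malonyl-CoA inhibits and through which long-chain fatty acids enter mitochondria, gave values that cannot be read as a ranking of isoforms. Cpt1b, the muscle isoform (chromosome 15, 89416405 to 89425863), held 3.09, 3.01 and 3.16 CPM, and Cpt1a, the liver isoform, 87.7, 95.4 and 93.3 CPM. Per kilobase Cpt1a made up 89.2% ± 0.748 of the family, Cpt1c 6.29% and Cpt1b 4.46%. However, 94.8% of the exon bases of Cpt1b overlap other listed genes, and 75.6% of its windows of 100 bases are shared with other genes. The largest partner in both was a listed read-through transcript of Chkb and Cpt1b. The read-through symbol was listed at 0 reads in every heart, and Chkb at 0.477 ± 0.214 CPM. Whether reads that fall in both features were counted under either name is not stated, and the Cpt1b value is uncertain.

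**Figure D4:**
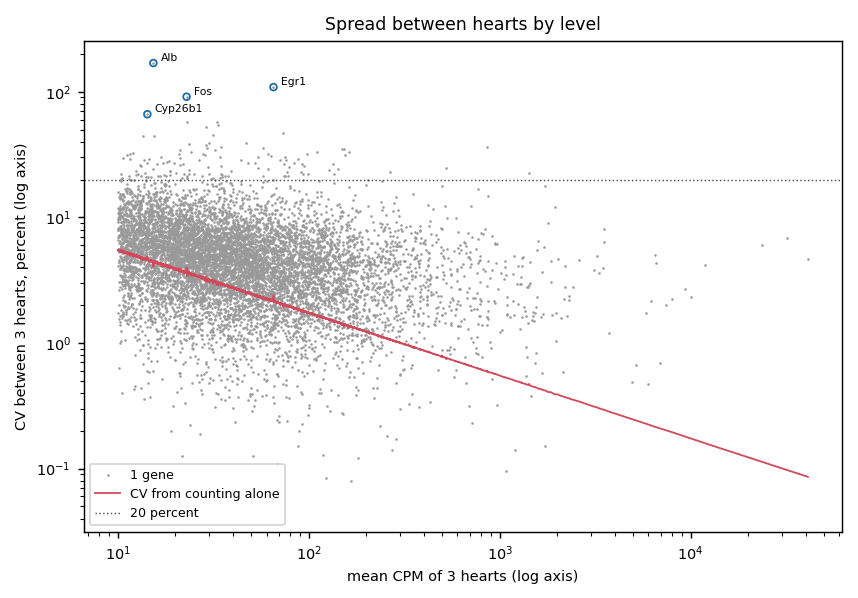
Coefficient of variation over the 3 hearts (percent, log axis) against mean CPM (log axis) for the 8905 genes with a mean of at least 10 CPM; grey points are genes, the red line is the variation that counting alone gives, the dotted line marks 20%, and blue rings mark the 4 most variable genes. Most points lie above the counting line, and Alb, Egr1, Fos and Cyp26b1 stand at the top.

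The hearts differed little from one another at most genes. The coefficient of variation (CV, SD over mean) had a median of 4.41% over the 8905 genes with a mean of at least 10 CPM, beside 2.79% from counting alone, and 129 genes exceeded 20%. For genes with a mean of 1000 CPM or more the median CV was 2.30%, beside 0.440% from counting. The common biological coefficient of variation estimated by edgeR was 6.44% over 14004 genes. Replicate 2 was the heart farthest from the others for 47.6% of genes, replicate 3 for 29.4% and replicate 4 for 23.0%. The library scaling factors estimated by edgeR were 1.015, 0.9969 and 0.9884 in replicates 2, 3 and 4. The part of such a shift in these percentages was not tested. Replicates 3 and 4 share a title prefix (C6) and replicate 2 has another (C3); the meaning of the prefix is not given in the sources used here, and with 1 heart in C3 the prefix and the heart cannot be told apart. Without replicate 2 the median CV was 2.67% and 76 genes exceeded 20%. Without replicate 4 the latter number was 210. These values rest on 2 hearts each and are not directly comparable with those of 3 hearts.

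By class, the lowest median CVs were 2.23% for 39 genes of fatty acid oxidation, 2.27% for 11 of the creatine kinase, adenylate kinase and myoglobin class and 2.37% for 88 of oxidative phosphorylation, beside 4.41% over all 8905 genes. Counting alone gives medians of 1.10%, 1.52% and 0.942% for these classes, beside 2.79% over all. The CV fell with level, to a median of 3.34% for genes of 100 to 1000 CPM, and classes were not matched for level. Within the tricarboxylic acid cycle class, 2 of 36 genes exceeded 20%, beside 129 of all 8905. One was Pdk4 and the other Nnt (chromosome 13, 119335448 to 119408997), the mitochondrial transhydrogenase that is defective in C57BL/6J but intact in C57BL/6N mice. Nnt held 1208, 1796 and 1282 CPM, so reads were abundant in every heart and replicate 3 was the high one. The 10 least variable genes at 100 CPM or more were Herc2, Magi3, Csrp3, Wdr26, Ctsa, Tln1, Casq2, Sptbn1, Uba1 and Smtn. Csrp3, the muscle LIM protein of the Z-disc, held 1080.2, 1079 and 1078 CPM, and Tln1 (talin) 272.8, 272.9 and 272.2. Their CVs, from 0.080% to 0.182%, lay below what counting alone gives on average (0.530% for Csrp3), so the order among them is not informative.

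Immediate early genes, which cells switch on within minutes of a stimulus, were the class of widest spread. Their median CV was 24.95%, beside 2.24% from counting alone, and 13 of 17 genes exceeded 20%. Over all 8905 genes the median was 4.41% and 129 exceeded 20%. Egr1, a zinc finger factor, held 27.8, 147 and 20.8 CPM, Fos held 13.7, 46.8 and 8.17, and Junb held 26.3, 41.0 and 19.6, each highest in replicate 3. Ier2, Egr3 and Fosb had the same order of hearts, at 29.5, 6.82 and 6.48 CPM in replicate 3 and no more than 18.7, 2.79 and 2.04 in the other hearts; Egr3 and Fosb were named after their values were seen. Klf6, Fosl2, Klf2 and Jun were instead highest in replicate 2 and lowest in replicate 3, with replicates 3 and 4 close for Jun. Klf6 held 112.5, 61.5 and 89.95 CPM and Fosl2 held 97.0, 58.0 and 80.0. The most abundant genes of the class had other orders, with replicate 4 the low heart: Nr4a1 held 192, 174 and 99.9 CPM and Dusp1 held 141, 161 and 103. The time of day and the way the hearts were taken are not given in the sources used here.

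**Figure D5:**
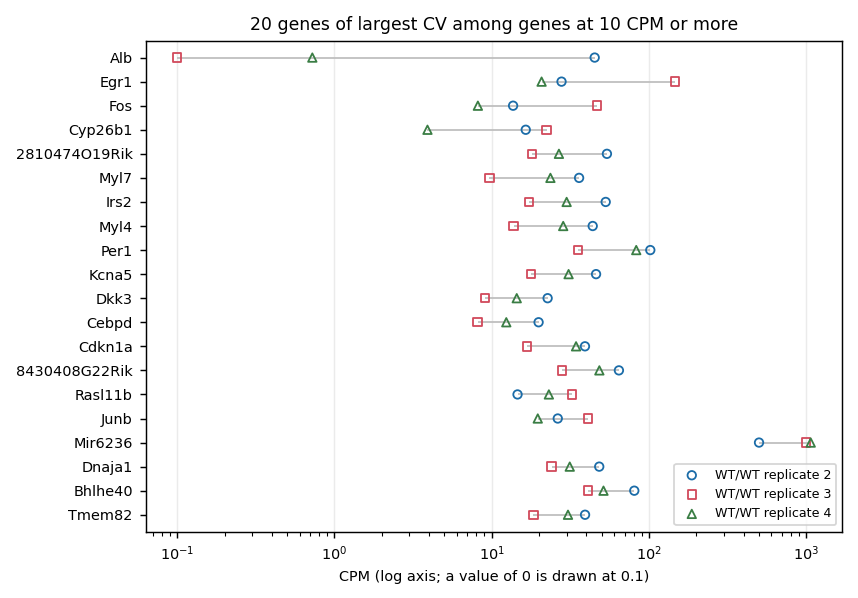
CPM (log axis) of the 20 genes of largest coefficient of variation among genes with a mean of at least 10 CPM, 1 symbol per heart (WT/WT replicates 2, 3 and 4), with a value of 0 drawn at 0.1. Replicate 3 is the highest heart for Egr1 and Fos and the lowest for Myl7, Myl4, Irs2 and Per1.

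Several other variable genes were lowest in replicate 3 and highest in replicate 2. Per1, a circadian clock repressor, held 102.1, 35.3 and 83.1 CPM. Irs2, an adaptor of the insulin receptor, held 53.1, 17.3 and 29.99. Cdkn1a, the cell cycle inhibitor p21, held 39.2, 16.8 and 34.4, and Bhlhe40, another clock repressor, 80.8, 41.0 and 51.4. The same order held for Kcna5, a potassium channel, Cebpd and Dnaja1. Cyp26b1, which degrades retinoic acid, differed from these: it held 16.5, 22.4 and 3.91 CPM, with replicate 4 the low heart. Rasl11b had the reverse of the order of Per1, at 14.6, 32.5 and 23.1 CPM, with replicate 2 the low heart and replicate 3 the high one. Of the 30 genes of largest CV, replicate 3 was the farthest heart for 16 and the lowest for 12 of those. Replicate 2 was the farthest for 13 and the highest for 10 of those, and replicate 4 was the farthest for 1.

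Among atrial genes, Myl7 held 36.0, 9.66 and 23.7 CPM and Myl4 held 43.9, 13.8 and 28.5, while Myl2 and Myl3 had CVs of 0.474% and 0.665%. Sln (sarcolipin, an atrial SERCA inhibitor) held 10.2, 1.42 and 7.79 CPM and Nppa held 175, 106.6 and 144. Replicate 3 was lowest and replicate 2 highest for these 4 genes. The 10 atrial markers summed to 350.2, 199 and 278 CPM. Bmp10, which is made in the right atrium, did not follow that order, at 0.124, 0.125 and 1.30 CPM, and Tbx5 and Nr2f2 had CVs of 4.78% and 6.06%. How much atrial tissue each sample held was not recorded in the labels, and its part in these values was not tested.

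Alb, encoding serum albumin of the liver (chromosome 5, 90460897 to 90476602), had the largest CV of all, at 45.2, 0 and 0.723 CPM. A count of 0 in replicate 3 allows up to 0.125 CPM, a limit from counting error only, as for all such limits and CVs here, since reads were not tied to single molecules. The 7 liver markers together summed to 67.3, 0.585 and 1.57 CPM, each of them highest in replicate 2, and to 13.9 in replicate 1. Their part in the other differences of replicate 2 was not tested. Fbp1 and Fabp1, the liver forms of their families, were also highest in replicate 2, a choice made after their values were seen. Fbp1 held 1.02, 0.0836 and 0.169 CPM, and Fabp1 held 2.49, 0 and 0.0241. Other liver forms did not have this order: Cpt1a, given above, and Pfkl, at 190.9, 196.0 and 199.6 CPM, were lowest in replicate 2, and Pygl held 6.40, 6.44 and 5.59. Beside Fbp1 the muscle form Fbp2 held 28.5, 35.0 and 30.7 CPM, and the first share of the fructose-1,6-bisphosphatases was 96.8% in replicate 2 and 99.8% and 99.5% in the others.

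Blood gave an opposite case. The adult globin genes Hba-a1, Hba-a2, Hbb-bs and Hbb-bt were each listed at 0 reads in all 3 hearts, while Alas2, the erythroid enzyme of heme synthesis, held 10.8, 13.2 and 10.99 CPM. Of the windows of 100 bases, 63.3% of Hba-a1 and 49.7% of Hbb-bs are shared with other genes. The largest partners are Hba-a2 and Hbb-bt. Of the exon bases of Alas2, 18.3% overlap other listed genes, with Apex2 the largest partner. A level of globin RNA cannot be taken from these counts.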

How the data were processed

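The authors deposited 1 table of read counts per heart: whole numbers for the same 24061 gene symbols in every file. STAR 2.4.0, featureCounts 1.4.4 and the builds mm10 and GRCm38 are named in the submitters' processing notes. The strand setting, the annotation and the handling of ambiguous reads are not given in the sources used here. Counts were divided by their sum and multiplied by 1000000 (CPM), then by the length of 1 transcript per gene (GENCODE M21, RefSeq-linked where possible; 98.5% of symbols). Classes, families and markers were fixed gene lists; a gene counted once among classes. The members and lists were chosen with earlier results of these data known. Read sharing was the share of a gene's windows of 100 bases found exactly in another gene's transcripts, for listed genes and those of at least 500 CPM, and is a lower bound. Named genes were the 20 highest by CPM and per kilobase, leading genes of each class, the first and second members of families, the 20 most and 10 least variable genes, all markers, Cpt1b and Nnt. Promoter windows came from RefSeq. edgeR 4.0.16 and DESeq2 1.42.0 in R 4.3.3 estimated dispersion with an intercept only. The spread estimates were tested on simulated data. Alternatives were leaving out 1 heart, adding replicate 1, other level filters, lengths and scalings. Tables were made with Python and pandas. No label says outright that each library is a separate animal, so the SD is the spread between these libraries. 1 family is not reported here.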

Additional observations from a re-analysis of the deposited data

Results flagged for a closer look

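The 4 WT/WT libraries, the 3 hearts and replicate 1, were compared on 17 values. In 12 of them replicate 1, which the labels already note as a potential outlier, had a gap to the nearest library that passed Dixon's critical value for 4 samples, which chance passes in about 1 of 20 groups. Many of the values share reads, as the sums contain their classes, so the 12 are not independent. Replicate 1 lay above the 3 hearts for the reads of the first 10 genes (23.9%) and first 100 genes (42.6%), the sarcomere (22.6%), the contractile and excitation classes together (25.9%), glycolysis (2.30%), mitochondrial carriers (1.15%), extracellular matrix (1.57%) and cytosolic ribosomal proteins (1.56%). It lay below them for calcium handling (3.33%), fatty acid uptake and storage (1.01%), ketone and branched-chain amino acid breakdown (0.388%) and the 8 metabolic classes together (15.5%). The same comparison was not made among the 3 hearts alone.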

How the results depend on the processing

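With replicate 1 added, the first 10 genes took 17.7% of reads, the first 100 took 35.7%, the contractile classes 20.2% and the metabolic classes 16.2%, the median CV was 21.99%, 4816 genes exceeded a CV of 20%, the biological CV was 31.3%, and 1 family changed its first member. Per kilobase, the first 10 and 100 genes took 16.4% and 37.9%, the contractile classes 17.8% and the metabolic classes 25.9%. Of reads other than Myh6 these 4 shares were 12.8%, 30.6%, 14.8% and 17.2%, and of reads other than Rn45s, an alternative chosen after seeing the data, 13.6%, 31.3%, 18.9% and 17.0%. By CPM without length, 6 families changed their first member: Gpd1l, Pdk4, Plin4, Hadhb, Prkab2 and Sod2 then led. The median CV was 8.30% with no filter on level, and genes over 20% numbered 666 at 1 CPM or more, 13 at 100 CPM or more and 5581 with no filter. Leaving out 1 heart at a time gave median CVs from 2.67% to 4.24% and from 76 to 210 genes over 20%, from fewer hearts than the main values. Depth limits which genes are seen at all: thinned to the smallest library, a heart had 16951 genes with at least 1 read on average, beside 17287.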

Other observations

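Of 19 circadian clock genes, a list chosen after Per1 and Bhlhe40 were seen among the most variable genes, 17 averaged at least 10 CPM, with a median CV of 9.74%. Over all 8905 genes at this level the median CV was 4.41%, the 95th percentile was 12.6% and 129 genes exceeded 20%. Among the 17 clock genes, Per1 and Bhlhe40 exceeded 20% and 9 stayed under 10%. Clock held 94.7, 92.0 and 91.3 CPM in replicates 2, 3 and 4, Arntl held 30.4, 37.0 and 34.4, and Nr1d1 held 144, 165 and 136.

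Tob2, named after its values were seen, had the order of hearts of Per1, at 185.8, 90.4 and 181 CPM. Gbp4, named in the same way, an interferon-induced GTPase, had the reverse, at 21.1, 43.3 and 32.0 CPM.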
